A study of Mus musculus with 18 samples.

Results

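In vehicle-treated WT NIH3T3 cells, 2495 abundant mRNAs were compared for the ribosome footprints they carried relative to their mRNA reads. They are the genes with 200 or more reads in each of 3 mRNA libraries, out of 24035 genes in the count tables. NIH3T3 is an immortalised mouse embryonic fibroblast line. The study sequenced ribosome-protected fragments (RPF) and heat-fragmented mRNA in 18 libraries, with 3 per assay of WT cells given vehicle, WT cells given the mTOR kinase inhibitor Torin1 (200 nM, 3 h), and cells carrying the Mtor C1483Y change. The 6 libraries of vehicle-treated WT cells form the baseline described here, the Torin1 libraries are used in 1 comparison, and the C1483Y cells were not analysed here except for 1 library that matched a Torin1 library. The labels do not say whether the 3 libraries of a group came from separate cultures, so the p-values speak only to variation among these libraries, part of which may be technical.

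A ribosome covers a short stretch of the mRNA it reads, and RNase digestion leaves that stretch intact, so footprint reads count ribosomes on coding sequence while mRNA reads count the whole transcript. Taken without lengths, as here, their ratio depends in part on how much of the transcript is coding. Often called translational efficiency, it also reflects how often ribosomes load on an mRNA and how long they stay. Well known cases of control at this step are the terminal oligopyrimidine (TOP) mRNAs of ribosomal proteins and elongation factors, which respond to mTOR, and the ferritin mRNAs, whose iron-responsive element binds a repressor when iron is scarce. Noncoding RNAs, by their nature, carry few or no translating ribosomes.

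The WT libraries held 12.03, 42.8 and 12.88 M usable reads for RPF and 26.69, 94.3 and 56.34 M for mRNA. Multiply aligned reads, 26.9% to 35.0% of counted RPF lines and 65.6% to 66.4% of mRNA lines, did not enter gene counts. The gene Tmem38b, left out of all scaling, took between 0.042% and 9.43% of RPF gene reads. Fibroblast markers were abundant, with 13 genes summing to 25211 to 37094 CPM (reads of a gene scaled to a common library total) in RPF and 12266 to 23703 CPM in mRNA, although 1 of the 13 was at 0 in all 3 mRNA libraries. Summed markers of epithelium and endothelium were at 0 in mRNA and at most 1.06 CPM in RPF. Those of muscle, leukocytes, and neurons and glia reached 46.9, 20.4 and 19.6 CPM in RPF and 0.23, 11.4 and 0.046 CPM in mRNA, and those of adipocytes 89.5 CPM in RPF and 28.0 CPM in mRNA.

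The footprint libraries agreed far better with each other than the mRNA libraries did. Across the 2495 genes, the CPM of the highest over the lowest of 3 libraries had a median of 1.48-fold in RPF and 5.28-fold in mRNA. Counting error is small beside this, since 200 reads carry an exact 95% Poisson interval of 173 to 230 reads; without molecular identifiers, such intervals cover counting error alone. The mRNA range passed 10-fold in 677 genes, against 38 in RPF, and stayed under 2-fold in 304 genes, against 1960 in RPF. Pearson's r of log2 CPM across genes, which are not independent replicates, was 0.91 to 0.97 between RPF libraries and 0.41 to 0.63 between mRNA libraries. The second mRNA library was the highest of the 3 in 58.2% of genes and the lowest in 30.5%.

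**Figure D1:**
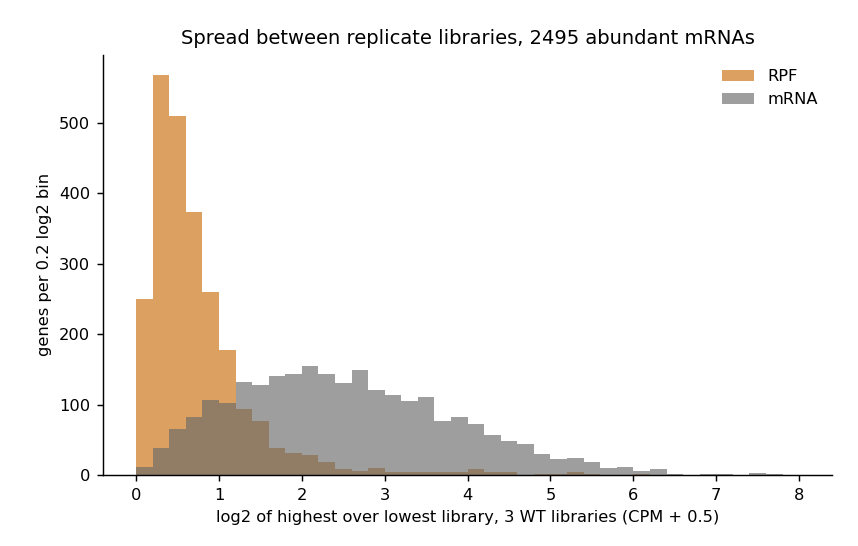
Number of genes (y axis) by the log2 of the highest over the lowest of 3 WT libraries (x axis, CPM plus 0.5), for RPF and mRNA. RPF ranges pile up near their median of 0.57, while mRNA ranges spread around a median of 2.40 and reach past 7.

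The genes with the widest mRNA range show what this means for single values. Pcbp4, an RNA-binding protein, had 101, 964 and 4.26 CPM in the mRNA libraries and 40.4, 46.8 and 53.6 CPM in RPF. Dph2, a diphthamide synthesis enzyme, had 50.8, 773 and 3.52 CPM in mRNA and 47.4, 52.9 and 73.4 CPM in RPF. Bub1b, a mitotic checkpoint kinase, had 68.1, 787 and 3.59 CPM in mRNA and 107, 114 and 88.6 CPM in RPF. In all 3 genes mRNA replicate 2 was the highest and replicate 3 the lowest, while the footprints varied by less than 2-fold. The narrowest mRNA ranges were those of Pak1ip1, a ribosome assembly factor, at 11.7, 11.9 and 12.3 CPM, of Plxnb2, a semaphorin receptor, at 334, 329.8 and 357 CPM and of Ube2v2, a ubiquitin-conjugating enzyme variant, at 16.4, 15.1 and 16.6 CPM. Near the 200-read limit, Napa, Ndn, Ppp5c and Orc6 were just outside with lowest mRNA counts of 196, 196, 196 and 197 reads, and Scfd1, Chd8, Zfp110 and Psmd4 just inside with 204, 205, 206 and 207 reads.

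Among the 2495 mRNAs, footprints were called higher than mRNA reads for 39 and lower for 62, where each assay was scaled to its own total and a log2 ratio of 0 means an equal CPM in both. Higher calls included Rrbp1, a protein of the endoplasmic reticulum, the histone chaperone subunit Supt16, the nucleolar protein Ncl, the chaperone Hsp90aa1, the matrix protein Bgn and the actin-bundling protein Fscn1. Lower calls included noncoding RNAs, the protease gene Tasp1, ferritin light chain (Ftl1) and 14 ribosomal protein mRNAs, among them Rpl41 and Rps12. Calls are those of edgeR's quasi-likelihood test at an adjusted p under 0.05, over 9501 genes tested; of these, 18.3% were called higher and 0.653% lower in RPF. All 62 lower calls lay among the 2495 genes, whereas 1702 of the 1741 higher calls were genes under the limit of 200 mRNA reads. Choosing genes by their mRNA reads favours a low ratio, so a higher share of low calls than in the background is not a result about these genes. Because so many genes were called, a member passed at an unadjusted p of up to 0.0094, and 41 of the 101 calls shared an adjusted p of 0.0190.

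The median log2 ratio of the 2495 genes was -0.47, with 911 above 0 and 1584 below, against a median of 0.46 over all genes tested. A ratio near 0 depends on how the assays are set against each other. With TMM scaling over all 6 libraries the split was 8 higher and 76 lower, and with the median of the 2495 genes set to 0 it was 78 higher and 35 lower. The typical standard error was wide, with a median of 0.98 on the log2 scale, and the smallest called ratio was 0.97. In simulated counts with the spread of these libraries, log2 changes of 4 in genes of the lower level range were recovered in 7% of cases. Changes of 2 were recovered in 0%. Only 100 genes of each size were changed there, so a call needed a smaller unadjusted p than in the data. Those shares therefore do not give the recovery in these data. With standard errors this wide, the lack of a call does not show equal shares. All 9 library pairs put the footprints above the mRNA in 338 genes and below it in 461. Before adjustment, the edgeR test gave p under 0.05 in 380 of the 2495. The matching shares over all 9501 genes tested were not counted. With 3 libraries per assay some genes separate fully by chance, and choosing genes by mRNA reads favours the lower side. These 3 counts are therefore a description only and do not show how many genes differ.

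**Figure D2:**
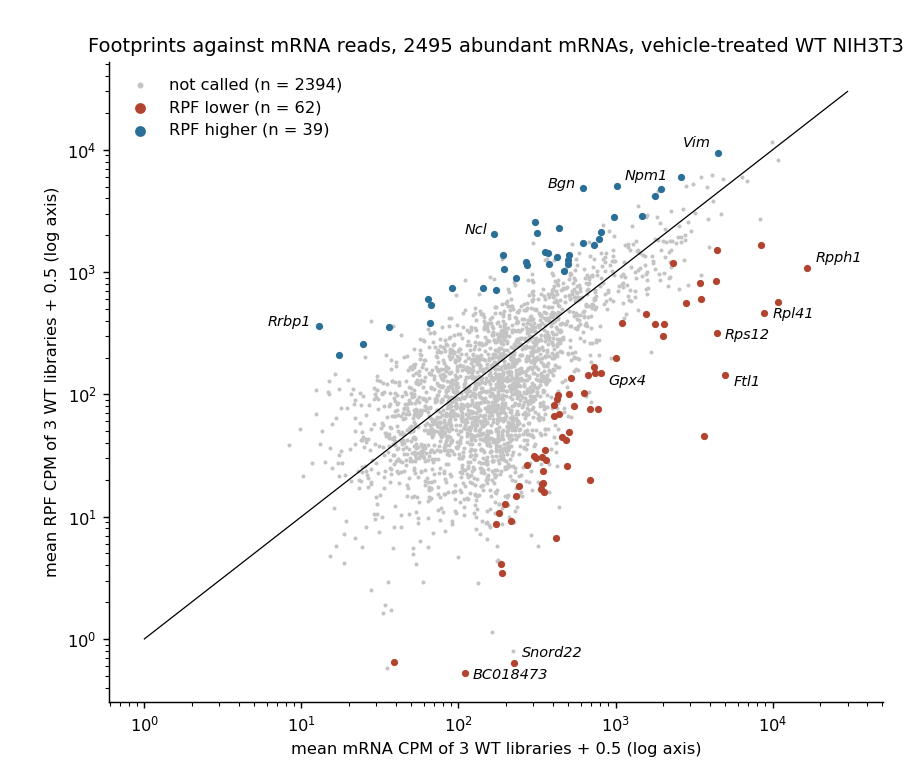
Mean RPF CPM (y) against mean mRNA CPM (x) of 3 WT libraries each, both plus 0.5 on log axes, with the line of equal CPM; 39 genes were called higher (blue), 62 lower (red) and the rest not called (grey). Ftl1, Rpl41 and Rps12 lie far below the line at high mRNA CPM, and Ncl, Bgn and Npm1 well above it.

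These counts rest on few libraries. Leaving out the first or the second RPF library left 0 higher and 1 lower call, and without replicate 3 there were 26 and 26. Leaving out the first mRNA library gave 64 and 93 calls, and leaving out the second gave 111 and 206. Ftl1 was called under all 15 alternative fits, and Rpl41 and Rps12 under 13 of them. Of the 101 called genes, 63 were called under 8 or more of the 15 fits and 38 under 3 to 7; Rars was called under 6, Odc1 and Insig1 under 5, Rian under 4 and Ctsl under 3. DESeq2 called 92 of the 101 genes. Those it did not call included Fn1 (DESeq2 adjusted p = 0.071), Vim (0.081), Ppia (0.090) and Ctsl (0.139). In all, 47 of the 101 called genes belong to none of the gene groups below.

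Ferritin light chain had the lowest ratio of the coding mRNAs whose mRNA libraries differed by less than 2-fold. Ftl1, a subunit of the iron storage shell, had 132, 116 and 185 CPM in RPF against 5331, 5139.9 and 4559.8 CPM in mRNA. The 3 footprint values lay far below the 3 mRNA values, and the mRNA libraries differed by only 1.17-fold. The footprint share was 34.7-fold lower than the mRNA share, a log2 ratio of -5.12 ± 0.28 (SE; edgeR adjusted p = 0.00498). The heavy chain Fth1, which carries the same kind of iron-responsive element, had 272, 272 and 299 CPM in RPF and 334, 622 and 419.5 CPM in mRNA, and its log2 ratio of -0.71 ± 0.46 was not called (edgeR adjusted p = 0.548). Among the 5 measured genes of the iron group, Ftl1 was the 1 called lower. Fth1, Slc11a2 and Sdhb were among those not called, and the median was -0.71. Whether Slc11a2 and Sdhb carry the element of the ferritin mRNAs was not checked here, so this median does not describe mRNAs with that element. Ferritin genes have near-identical pseudogenes, and reads shared with them were dropped, so the Ftl1 and Fth1 levels are uncertain.

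Most ribosomal protein mRNAs had a log2 ratio below 0, as did most of the 2495 genes. Of 77 measured, 14 were called lower and 1 higher, and the median log2 ratio was -0.85 against -0.47 for all 2495 genes. Of the 77, 66 lay below 0 and 52 below the median of the 2495 genes. Among the 100 genes with the highest mean mRNA CPM, which include ribosomal protein genes, 17% were called lower. The large subunit gave 8 lower calls of 45 (median -0.85) and the small subunit 6 lower and 1 higher of 32 (median -0.88). The SD of these medians over libraries was 0.76 and 0.67, wider than their distance from -0.47. The direction of both medians held under all 15 alternatives, where they ranged from -1.53 to -0.38 and from -1.49 to -0.41. Ribosomal protein genes have many processed pseudogenes and several host small nucleolar RNAs in introns, and the strand setting of the counting is not given in the sources used here, so single values are uncertain.

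TOP mRNAs are defined by a run of C and T at their start. The windows below show 30 bases around the longest such run near the RefSeq start (GRCm38.p6). They cover 5 ribosomal protein genes called lower and 2 not called, Rps18 (log2 ratio -0.47) and Rps6 (-0.12). The run is in capitals and all other bases in lower case, read 5′ to 3′ on the gene's strand.
Rpl41: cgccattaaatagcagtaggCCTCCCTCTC
Rps12: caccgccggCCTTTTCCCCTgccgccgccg
Rps2: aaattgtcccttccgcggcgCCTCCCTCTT
Rpl36a: ggctctagCCTCTCTCTTTCCgagctgcta
Rpl13a: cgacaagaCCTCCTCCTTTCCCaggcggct
Rps18: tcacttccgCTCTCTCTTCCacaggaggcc
Rps6: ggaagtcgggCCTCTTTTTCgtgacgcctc
They lie at chr10:128549119-128549148 (minus strand) for Rpl41, chr10:23787181-23787210 (minus strand) for Rps12, chr17:24720083-24720112 (plus strand) for Rps2, chrX:134585673-134585702 (plus strand) for Rpl36a, chr7:45128722-45128751 (minus strand) for Rpl13a, chr17:33955647-33955676 (minus strand) for Rps18 and chr4:86857349-86857378 (minus strand) for Rps6. Within the part searched, the runs are 10, 11, 10, 13, 14, 11 and 10 bases long in that order. Counted from the RefSeq start, they begin at base 41, 9, 41, 28, 3, -2 and -1. Those of Rpl41 and Rps2 reach the end of the part searched, so they may be longer, and they lie well after the annotated start. All genes shown have a run of 10 or more, so the windows do not tell how often genes of either kind carry one. Rpl12, Rplp0 and Rps3a1, also called lower, had longest runs of 8, 7 and 6 bases. Rpsa, not called at -0.35, had 7.

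A run of 10 or more C or T letters, in any order, within 40 bases before to 50 bases after the start was found in 41 of 57 ribosomal protein genes that had a RefSeq window (71.9%). The share was 18.2% of the 2022 abundant genes with a window and 18.3% of all 27025 genes. On the other strand, that is as runs of A or G, the shares were 12.3%, 17.6% and 19.4%. The ribosomal protein genes with such a run had a median log2 ratio of -0.81 (n = 41) and those without -0.53 (n = 16), with 5 and 3 lower calls. A run in this window describes the letters only and is not a mapped start site.

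Rpl41, the smallest protein of the large subunit, had 477, 282 and 638 CPM in RPF and 7928, 11791 and 6825 CPM in mRNA, a log2 ratio of -4.25 ± 0.39 (edgeR adjusted p = 0.0190). Rps12 of the small subunit had 371, 263 and 313 CPM in RPF and 2425, 6965 and 3878 CPM in mRNA, a log2 ratio of -3.81 ± 0.44 (edgeR adjusted p = 0.0190). In both, the highest footprint library stayed below the lowest mRNA library. The part that coding length plays in these ratios was not tested. Rpl13a had 535, 462 and 671 CPM in RPF against 2260.2, 3698 and 2470.0 CPM in mRNA (-2.34 ± 0.30), and the stalk protein Rplp0 1563, 1624 and 1763 CPM against 4351, 13406 and 7567 CPM (-2.36 ± 0.40). Rps2 had 812, 681 and 1039 CPM in RPF against 2715, 6325 and 4136 CPM in mRNA, a log2 ratio of -2.38 ± 0.36. Further lower calls included Rpl32 at a log2 ratio of -2.74 and Rps3a1 at -1.55, with Rpl29, Rplp1, Rps20, Rpl36a and Rpl12 between them.

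The 1 ribosomal protein mRNA called higher was Rps27a, which encodes a ubiquitin fused to a ribosomal protein. It had 1226, 1413 and 1647 CPM in RPF and 409.7, 394 and 304 CPM in mRNA, and its log2 ratio was 1.95 ± 0.31 (edgeR adjusted p = 0.0190). Rps6 (-0.12), Rps18 (-0.47) and Rpsa (-0.35), all abundant in both assays, were not called. Within this family, the called log2 ratios thus ran from -4.25 to 1.95.

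Elongation factors and other TOP mRNAs had no lower call. Among 23 measured elongation factors and other TOP mRNAs, 3 were called higher and 0 lower, with a median of 0.28, which turned to -0.23 with TMM over all 6 libraries. Eif5a, which helps ribosomes through slow peptide bonds, had 1727, 1982 and 2603 CPM in RPF and 183, 495 and 268 CPM in mRNA (log2 ratio 2.74 ± 0.45, edgeR adjusted p = 0.0190). Npm1, a nucleolar chaperone of ribosome assembly, had 5408, 4885 and 4840.1 CPM in RPF and 1488, 647 and 924 CPM in mRNA (log2 ratio 2.31 ± 0.33, edgeR adjusted p = 0.0190). Nap1l1, a histone chaperone, was the other (1.23 ± 0.32). In Eif5a and Npm1 the lowest footprint library lay above the highest mRNA library by more than 3-fold.

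Eef1a1, which brings tRNAs to the ribosome and took some of the most mRNA reads of all genes, had 7940.1, 9229 and 7409 CPM in RPF and 7423, 15128 and 10017 CPM in mRNA. The groups overlapped, and the log2 ratio of -0.41 ± 0.26 was not called (edgeR adjusted p = 0.523). None of 19 initiation factors was called in either direction (median -0.10); by unadjusted p there was a lead in Eif4h, a helper of the helicase eIF4A, at -1.43 ± 0.44 (edgeR adjusted p = 0.0783), while Eif2b5, an exchange factor subunit, was at -1.46 ± 0.81. Of 16 aminoacyl-tRNA synthetases, which charge tRNAs, 1 was called higher and the median was 0.50, or -0.20 with TMM over all 6 libraries. Rars, the arginine enzyme, had 370.1, 451 and 322 CPM in RPF and 73.0, 30.8 and 91.9 CPM in mRNA (2.55 ± 0.68, edgeR adjusted p = 0.0419). Tars, the threonine enzyme, was not called at 2.04 ± 0.93.

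**Figure D3:**
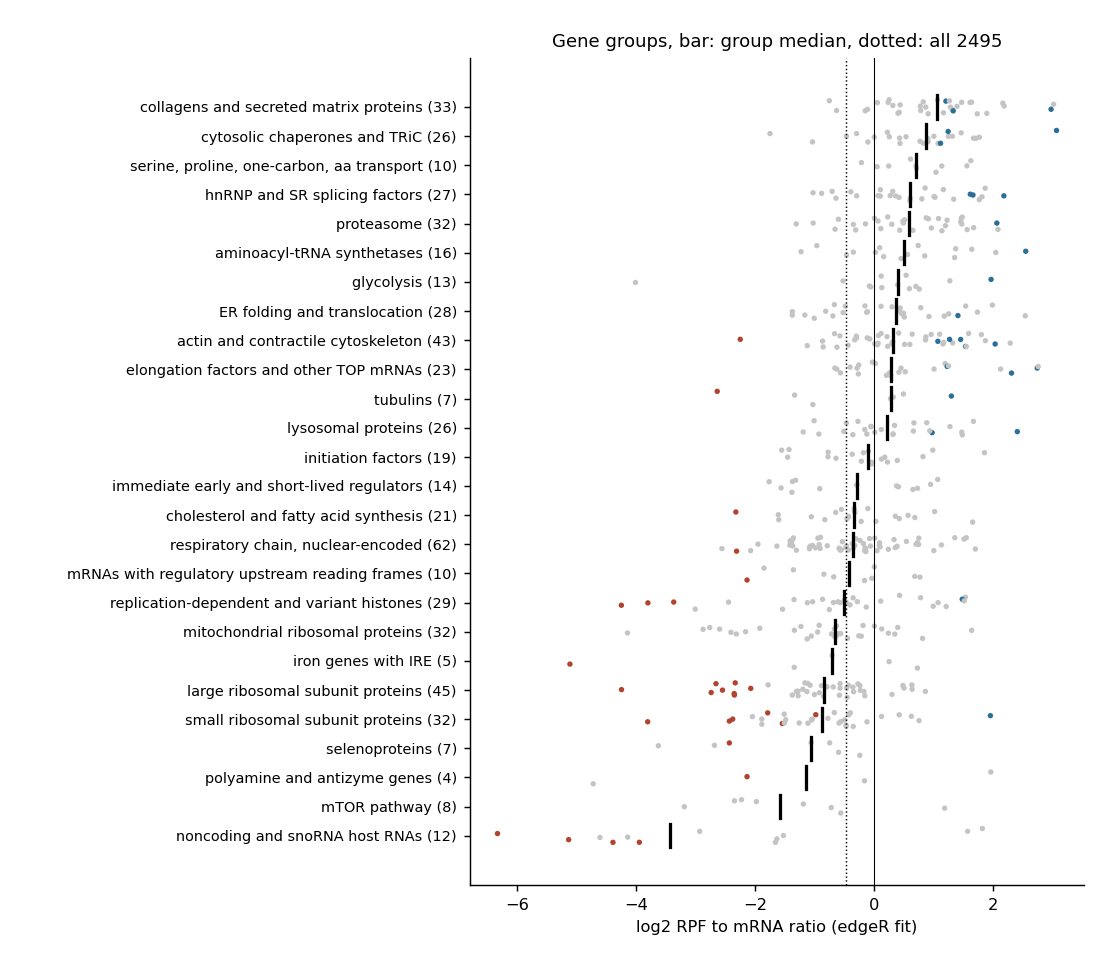
Fitted log2 RPF to mRNA ratio (x axis) of each measured gene in 26 gene groups (y axis, number of genes in brackets), with the group median as a bar, all 2495 genes as a dotted line and called genes in blue (higher) or red (lower). Medians run from -3.44 for noncoding and snoRNA host RNAs to 1.06 for collagens and secreted matrix proteins, and single genes within a group often differ by more than the medians do.

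With TMM over all 6 libraries, the medians of the elongation factor, synthetase, ER folding, cytoskeleton, tubulin, glycolysis, lysosomal, splicing and amino acid groups lay between -0.41 and -0.02, while the matrix (0.48), chaperone (0.28) and proteasome (0.12) medians stayed above 0. Set to the median of all 2495 genes, those of initiation factors (0.37), respiratory chain (0.11), cholesterol synthesis (0.14), immediate early genes (0.18) and mRNAs with upstream reading frames (0.050) lay above 0.

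Nucleolin, Ncl, a nucleolar protein of ribosomal RNA processing, had 2319, 1758 and 2037 CPM in RPF and 211, 174 and 119 CPM in mRNA. All footprint values were at least 8-fold above all mRNA values, and the log2 ratio was 3.60 ± 0.35 (edgeR adjusted p = 0.0190). Supt16, a subunit of the histone chaperone FACT, had 214, 169 and 240.0 CPM in RPF against 14.7, 11.0 and 24.8 CPM in mRNA (3.62 ± 0.90, edgeR adjusted p = 0.0304). C1qbp, a mitochondrial matrix protein, had 562, 495 and 545 CPM against 70.1, 53.9 and 74.6 CPM (3.01 ± 0.51). Ncl, Supt16 and C1qbp overlap other annotated genes, so some of their reads may belong elsewhere.

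Matrix genes lay mostly above 0. Among 33 collagens and secreted matrix proteins, 3 were called higher and 0 lower, 29 lay above 0, and the median of 1.06 stayed positive under all 15 alternatives (0.48 to 1.53). Fn1, the fibre protein fibronectin, had 4759, 7734 and 5476 CPM in RPF and 2416, 3367 and 2018 CPM in mRNA, a log2 ratio of 1.20 ± 0.27 (edgeR adjusted p = 0.0205). Bgn, the proteoglycan biglycan, had 3931, 5515 and 5209 CPM in RPF and 161, 1135 and 572 CPM in mRNA, a log2 ratio of 2.97 ± 0.67 (edgeR adjusted p = 0.0207). The footprints of Bgn were even across libraries, whereas its mRNA values spread 7.03-fold. Thbs2, the matrix protein thrombospondin 2, was also called (1.33 ± 0.31). Efemp1, a matrix glycoprotein outside that list, had 1439.9, 1548 and 1126 CPM in RPF against 154, 222 and 201 CPM in mRNA (2.83 ± 0.35).

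Of 28 genes for folding and translocation in the endoplasmic reticulum, 1 was called higher and 0 lower (median 0.36). It was Hspa5, the chaperone BiP, with 2104, 2249 and 2051 CPM in RPF and 611, 987 and 818 CPM in mRNA (1.41 ± 0.27, edgeR adjusted p = 0.0190). Calr, a calcium-binding chaperone, was not called at 0.49 ± 0.22. Rrbp1, a ribosome-binding protein of that membrane and not on the list, had the highest log2 ratio of the called genes at 4.88 ± 1.05 (edgeR adjusted p = 0.0197), with 309, 446 and 338 CPM in RPF. Its mRNA values were 27.3, 4.79 and 4.95 CPM, so the size of the ratio depends on low and uneven mRNA counts. Of 26 lysosomal genes, 2 were called higher and 0 lower (median 0.22): the tetraspanin Cd63, with 2222, 2642 and 2012 CPM in RPF and 404, 316 and 579.9 CPM in mRNA (2.40 ± 0.33), and the protease Ctsl (0.97 ± 0.26, edgeR adjusted p = 0.0427).

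Among 43 genes listed under the actin and contractile cytoskeleton, 5 were called higher and 1 lower (median 0.31). The list also holds intermediate filament, lamina and annexin genes. The intermediate filament protein Vim had 9692, 10646 and 7911 CPM in RPF and 4156, 5145 and 4165 CPM in mRNA. Its replicates were among the tightest, and the log2 ratio of 1.07 ± 0.16 was called (edgeR adjusted p = 0.0190). The membrane-binding annexin Anxa5 (2.03 ± 0.29), the actin-severing protein Cfl1 (1.53 ± 0.25), the lamina protein Lmna (1.45 ± 0.29) and Anxa1 (1.27 ± 0.27) were the other higher calls. The actin-sequestering peptide Tmsb4x was called lower, with 434, 405 and 282 CPM in RPF and 901, 3484 and 954 CPM in mRNA (-2.25 ± 0.61, edgeR adjusted p = 0.0457). Actb itself, with 10556, 14686 and 9617 CPM in RPF and 6365, 15996 and 7473 CPM in mRNA, was not called (0.22 ± 0.37). Lgals1, a secreted galectin with 5898, 4669.9 and 6242 CPM and 5594, 10165 and 4972 CPM, was not called either (-0.30 ± 0.29).

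Outside the list, the 12 highest ratios of called genes included Fscn1, Ncam1, Epb4.1l3 and Myadm. Fscn1, the actin-bundling fascin, had 571, 741 and 490.3 CPM in RPF and 49.0, 78.2 and 62.1 CPM in mRNA (3.25 ± 0.52, edgeR adjusted p = 0.0190). Ncam1, a cell adhesion receptor, had 232, 493 and 338 CPM against 49.8, 26.1 and 30.2 CPM (3.33 ± 0.72). Epb4.1l3, a membrane cytoskeleton linker, had a log2 ratio of 3.42 ± 0.86, and Myadm, a membrane protein of lipid rafts, 3.04 ± 0.74. Of 7 tubulins, Tubb5 was called higher, with 4399, 5699 and 4331 CPM in RPF and 1743, 2414 and 1722 CPM in mRNA (1.30 ± 0.22), and Tuba1b lower, with 110.4, 109 and 84.9 CPM and 585, 472 and 841 CPM (-2.64 ± 0.49, edgeR adjusted p = 0.0190). Tuba1b shares most of its coding sequence with near-identical copies, and reads that fit more than 1 copy were dropped, so its level is uncertain and the part this plays was not tested.

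**Figure D4:**
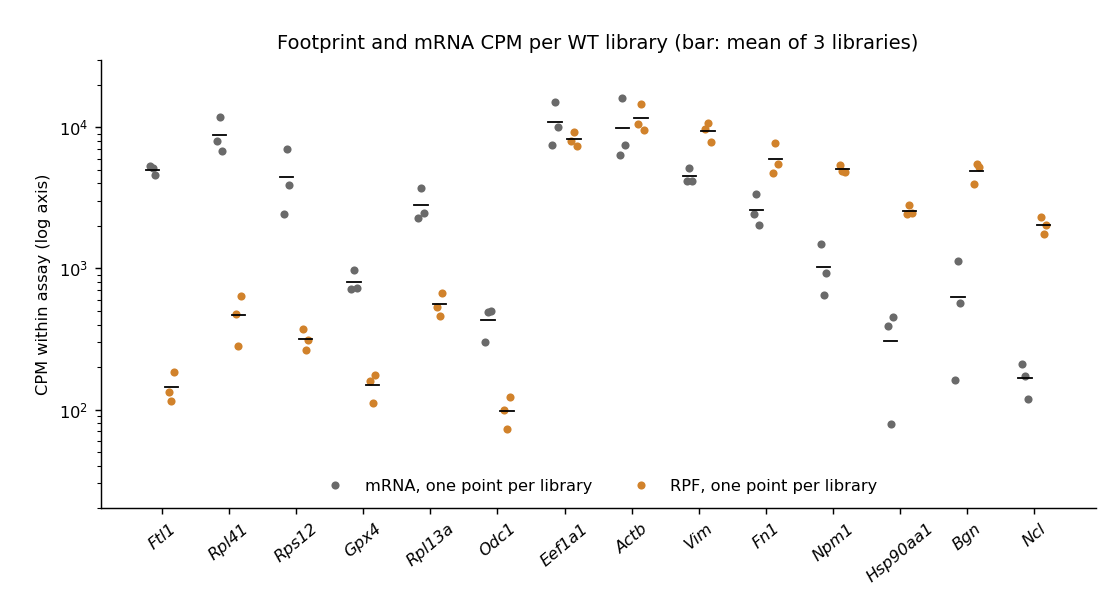
RPF (orange) and mRNA (grey) CPM, on a log axis, of 14 genes in each of 3 WT libraries per assay, with the mean as a bar. Ftl1, Rpl41, Rps12, Gpx4, Rpl13a and Odc1 have every footprint value below every mRNA value, Eef1a1 and Actb overlap, and Vim through Ncl have every footprint value above.

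Chaperones, proteasome and splicing factors leaned to higher ratios. Of 26 cytosolic chaperones and chaperonin subunits, 3 were called higher and 0 lower (median 0.86): Hsp90aa1, Cct3 (1.11 ± 0.30) and the prolyl isomerase Ppia (1.24 ± 0.30). The inducible chaperone Hsp90aa1 had 2419, 2821 and 2469 CPM in RPF and 388, 79.2 and 455 CPM in mRNA (3.06 ± 0.64, edgeR adjusted p = 0.0193), with even footprints and 1 low mRNA library. Of 32 proteasome genes, Psmb3, a core subunit, was called higher (2.06 ± 0.53) and 0 lower, 25 lay above 0 and the median was 0.58; the regulatory ATPase Psmc5 was not called at 2.08 ± 0.69. Of 27 splicing factors, 3 were called higher and 0 lower, with a median of 0.60 that turned to -0.05 with TMM over all 6 libraries. They were Hnrnpu (2.18 ± 0.41), Ptbp1 (1.66 ± 0.37) and the helicase Ddx5 (1.61 ± 0.41).

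In metabolism, 1 of 13 glycolysis genes was called higher, Gpi1, the glucose phosphate isomerase, with 883, 891 and 924 CPM in RPF and 187, 301 and 204 CPM in mRNA (1.96 ± 0.39). Pdk1, a kinase of pyruvate dehydrogenase, was at -4.01 ± 1.23 without a call. Of 62 nuclear-encoded respiratory chain genes, 0 were called higher and 1 lower (median -0.36). It was Atp5g2, a subunit of the ATP synthase ring, with 142, 154 and 148 CPM in RPF and 478, 950.3 and 779 CPM in mRNA (-2.31 ± 0.46, edgeR adjusted p = 0.0190); the complex I subunit Ndufb4 was at -2.56 ± 0.89 without a call. None of 32 mitochondrial ribosomal protein genes was called (median -0.67), where Mrps24 (-4.15) and Mrpl19 (-2.88) had the smallest p. Of 21 genes of cholesterol and fatty acid synthesis, Insig1, which retains the sterol sensor in the endoplasmic reticulum, was called lower (-2.33 ± 0.57) and 0 higher, and the desaturase Scd2 was at -1.06 ± 0.42. None of 10 genes for serine, proline and one-carbon enzymes and amino acid transporters was called (median 0.70), among them Slc3a2 at 1.62 ± 0.61 and Slc38a2 at 1.13 ± 0.52.

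Few of the mRNAs with built-in translational control were called lower, and a link to that control was not tested. Odc1, the first enzyme of polyamine synthesis, whose mRNA has a structured leader and an upstream reading frame, had 98.7, 72.8 and 122 CPM in RPF and 299, 491 and 503 CPM in mRNA. Its values did not overlap between assays, and its log2 ratio was -2.14 ± 0.57 (edgeR adjusted p = 0.0415). Of 10 measured mRNAs with regulatory upstream reading frames it was the 1 called (median -0.42), and Atf4, the stress-response factor, had 129, 87.9 and 173 CPM in RPF and 356, 302 and 344 CPM in mRNA without a call (-1.36 ± 0.57, edgeR adjusted p = 0.223). It was also the 1 called of 4 polyamine genes, where Smox, spermine oxidase, was at -4.72 ± 1.68 with 11.2, 609 and 52.5 CPM in mRNA. Of 7 selenoprotein mRNAs, which recode a stop codon, all lay below 0 and 1 was called lower (median -1.06). It was Gpx4, a lipid peroxide reductase, with 159, 112 and 175 CPM in RPF and 719, 969.9 and 722 CPM in mRNA (-2.44 ± 0.43, edgeR adjusted p = 0.0190); Gpx1 was at -3.63 ± 1.06 (edgeR adjusted p = 0.0625).

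None of 8 measured genes of the mTOR pathway was called (median -1.59), with Akt1 at -2.23 ± 0.67 (edgeR adjusted p = 0.0678) and Akt2 at -2.35 ± 1.07. None of 14 immediate early and short-lived regulators was called (median -0.29); Btg1 was at -1.57 ± 0.86 and Klf6 at -1.38 ± 0.88. Of 29 histone genes, 3 were called lower and 1 higher (median -0.50). The lower ones were Hist1h2bk (-4.25 ± 1.11), Hist1h3e (-3.80 ± 0.96) and Hist1h2bh, with 69.5, 20.2 and 57.3 CPM in RPF and 585, 686 and 249 CPM in mRNA (-3.37 ± 0.77), and the higher one was Hist1h4h (1.48 ± 0.35). Histone genes share coding sequence among near-identical copies, so which copy the reads came from is uncertain.

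Most noncoding RNAs had low ratios. Of 21 that RefSeq classes as noncoding, 6 were called lower and 0 higher, 20 lay below 0, and the median log2 ratio was -4.14. Rpph1, the RNA of RNase P, had 879.6, 939.8 and 1410.1 CPM in RPF and 10843, 30445 and 8559 CPM in mRNA (-3.95 ± 0.55, edgeR adjusted p = 0.0190). Its RPF values are well above 0, so the RPF libraries also hold fragments of an RNA that is not translated. Rprl3, annotated as a related RNase P RNA, had 17.4, 72.1 and 47.1 CPM in RPF and 1804, 7201 and 2001 CPM in mRNA (-6.33 ± 0.89). Rmrp, the RNA of RNase MRP, had 787, 4230.5 and 3058 CPM in RPF and 4479, 14227 and 6401 CPM in mRNA and was not called (-1.64 ± 0.67, edgeR adjusted p = 0.209).

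BC018473, a long noncoding RNA, had 1 RPF read in all 3 libraries together and 147, 103 and 78.8 CPM in mRNA, so its mRNA share was 6873 times its RPF share, with an exact 95% counting interval from 1233 to 271500. The small nucleolar RNA Snord22, which lies within the host gene Snhg1, had 5 RPF reads and 105, 487 and 87.2 CPM in mRNA; the ratio was 3264, with an interval from 1398 to 10050. The vault RNA Vaultrc5 (-5.14 ± 0.83) and the imprinted transcript Rian (-4.39 ± 1.22, edgeR adjusted p = 0.0496), which overlaps small RNAs, were also called lower. Of 6 pseudogenes, Gm10653 (-4.26 ± 0.59) and Rps15a-ps6, with 7 RPF reads in all, were called lower. The transcript named 2900097C17Rik matched no single RefSeq gene and had 2.44, 4.37 and 11.7 CPM in RPF and 263, 645 and 349.8 CPM in mRNA (-6.09 ± 1.00).

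Some coding genes were as low as the noncoding ones. Tasp1, the protease taspase, had 4.95, 1.20 and 2.71 CPM in RPF and 44.8, 401 and 118 CPM in mRNA (-5.99 ± 1.44, edgeR adjusted p = 0.0263). Zdhhc21, a palmitoyltransferase, had 6.41, 1.99 and 2.40 CPM against 154, 356 and 47.3 CPM (-5.69 ± 1.36). Crls1, which makes cardiolipin, had 12.9, 5.49 and 7.98 CPM against 143, 390.3 and 114 CPM (-4.62 ± 1.06), and 0610012G03Rik had 16.3, 5.64 and 24.7 CPM against 171, 518 and 368 CPM (-4.50 ± 0.95). In all 4 the second mRNA library was the highest. Under Torin1, Tasp1 had 0.19, 0.036 and 0 CPM in mRNA against 8.65, 4.83 and 5.19 CPM in RPF. The Torin1 mRNA values were 0.19, 30.5 and 98.3 CPM for Zdhhc21 and 121.5, 0.13 and 104.0 CPM for Crls1. For 0610012G03Rik they were 116.3, 85.4 and 24.0 CPM. The mRNA levels of Tasp1, Zdhhc21 and Crls1 were thus uneven across libraries, so the size of their ratios is uncertain. Gm20594, annotated as protein coding, had 298, 895 and 499.8 CPM in RPF and 7399, 16344 and 8802 CPM in mRNA (-4.26 ± 0.52). Footprints come from coding sequence and mRNA reads from the whole transcript, and transcript and coding lengths were not used here, so the part of a long untranslated region in a low ratio was not tested.

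The ratio varied little with base composition at the start of the transcript. Over 2011 coding genes with a RefSeq window, Pearson's r between the GC content of the first 50 transcribed bases and the log2 ratio was -0.10 and Spearman's rho -0.09, as a description across genes that share libraries. The median log2 ratio was -0.38 in the 708 genes with the lowest GC, -0.41 in the 658 in between and -0.70 in the 645 with the highest GC.

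Torin1 asks how the baseline ratios differ once mTOR is inhibited. The test of that difference, the interaction of assay and treatment over 12 libraries, called 4 genes lower under Torin1 and 0 higher, or 0.0369% and 0% of 10854 genes tested, and all 4 belong to the 2495. They are Eef1a1, Eef2, Rps18 and Rpsa, 2 elongation factors and 2 small subunit proteins, none of which was called at baseline. The library labelled mRNA replicate 3 of Torin1 had r = 0.999 in log2 CPM with a C1483Y mRNA library, against at most 0.63 for any other pair of mRNA libraries, so its label is in doubt; without it, 14 of 11334 genes tested were called lower and 0 higher. The same 4 and Rps6 were the 5 called among the 2495, and the other 9 lay under the limit of 200 mRNA reads.

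Eef1a1 had 1170.5, 1073 and 1121 CPM in RPF and 7895, 13323 and 16782 CPM in mRNA under Torin1. Against the WT values given above, its footprints were lower in every library and its mRNA overlapped. The log2 ratio differed by -3.08 ± 0.40 (edgeR adjusted p = 0.0093; -3.00 ± 0.38 without the doubtful library). Eef2, the translocase of elongation, had 4815, 7668 and 4984 CPM in RPF in WT and 1003, 1199.7 and 1218 CPM under Torin1, with 4413, 5236 and 4759 and 5022, 8361 and 9488 CPM in mRNA; the log2 ratio differed by -3.03 ± 0.35 (edgeR adjusted p = 0.00425; -3.01 ± 0.34 without the library). Rps18 had 2035, 2194 and 2268 CPM in RPF in WT and 448, 362 and 378 CPM under Torin1 (difference -2.57 ± 0.36), and Rpsa 1396, 2008 and 2002 and 371, 271 and 407 CPM (difference -2.58 ± 0.40). In these 4 genes the footprints of WT and Torin1 libraries did not overlap.

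**Figure D5:**
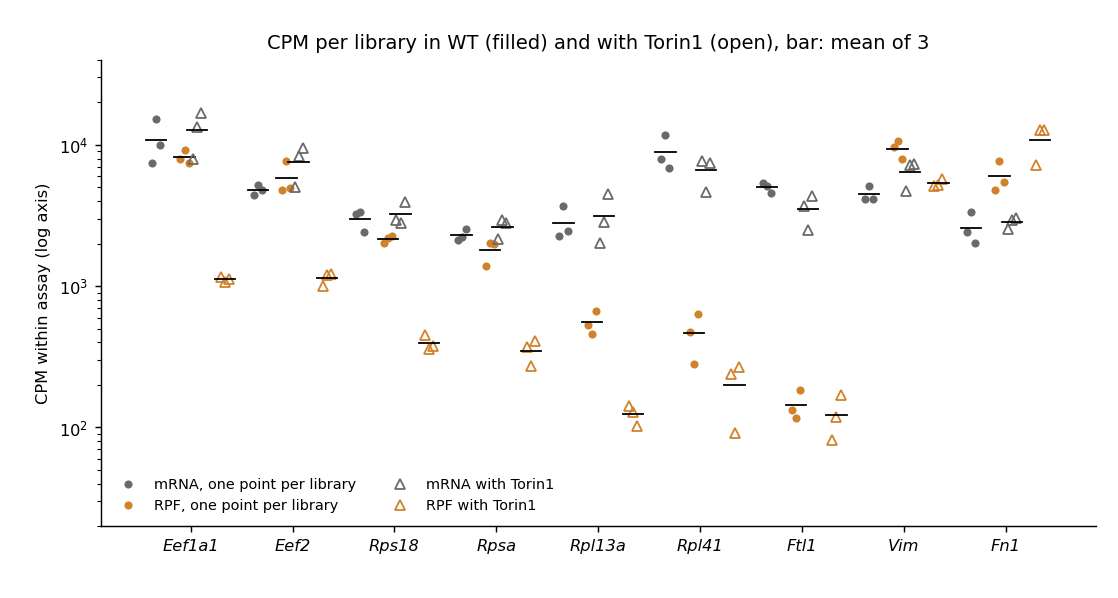
RPF (orange) and mRNA (grey) CPM, on a log axis, of 9 genes in 3 WT libraries (filled circles) and 3 Torin1 libraries (open triangles), with means as bars. The footprints of Eef1a1, Eef2, Rps18, Rpsa, Rpl13a and Vim, as drawn, lie lower under Torin1 in every library. Those of Ftl1 overlap, and those of Fn1 do not fall. Scaling factors for WT and Torin1 values came from different sets of libraries, so the narrow gap of Rpl41 is not read as a difference.

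The 77 ribosomal protein mRNAs had a median log2 ratio of -0.85 in WT and -2.40 under Torin1. Ratios under Torin1 in this paragraph are each gene's WT ratio plus its difference from the interaction fit, not a separate fit. Of the 77, 76 had a lower ratio under Torin1. The median difference of the 77 was -1.68, against 0.45 for all 2495 genes. Without the doubtful library the median difference was -1.57 against 0.42, again with 76 of 77 below 0, and with DESeq2 size factors it was -1.90 against 0.23. The 23 elongation factors and other TOP mRNAs stood at 0.28 in WT and -0.56 under Torin1. Ftl1, the low-ratio ferritin mRNA at baseline, had 81.1, 119 and 169.8 CPM in RPF and 3715, 2479.5 and 4312 CPM in mRNA under Torin1, and its log2 ratio differed by 0.27 ± 0.44 (edgeR adjusted p = 1). Rpl41 differed by -0.80 ± 0.55, Rps12 by -1.78 ± 0.58, Npm1 by -1.67 ± 0.36 and Vim by -1.34 ± 0.28, none of them called. The matrix proteins stood at 1.06 in WT and 1.02 under Torin1.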

How the data were processed

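RPF and mRNA counts per gene came from the authors' deposited tables, 1 per library, as raw whole-number counts. Bowtie 1.1.2, TopHat2 2.1.1 and HTSeq are named in the submitters' processing notes, with the build mm10; how they were set is not given in the sources used here. Left out were 5 summary lines, 27 date-named rows (genes hidden under calendar dates) and Tmem38b. Groups followed the labels. RPF was tested against mRNA in the 6 WT libraries with edgeR 4.0.16 in R 4.3.3 (quasi-likelihood test, TMM factors within each assay, filterByExpr, Benjamini-Hochberg over 9501 genes, threshold 0.05), and Torin1 against WT as the interaction over 12 libraries. CPM values are TMM-scaled. For WT values the factors were set over the WT libraries of an assay, and for Torin1 values over its WT and Torin1 libraries together. WT and Torin1 CPM are therefore not on exactly the same scale. All 2495 genes passed the filter. Of these, 2366 matched RefSeq by symbol and 126 by a synonym; 1026 overlap another gene.

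Genes named in the text are the 12 highest and 12 lowest log2 ratios among called genes whose assays do not overlap, the 8 with the most mRNA CPM, the 2 smallest p of each gene group and the 3 widest and narrowest mRNA ranges; other called genes of a group, Rps6, Rps18, Rpsa and Eef2 were added after their values were seen. The genes and groups were chosen with earlier results of these data known. Single genes of some groups are not reported here. Alternatives used DESeq2 1.42.0 and limma 3.58.1. The scripts were tested on simulated data: with a dispersion of 0.1, they recovered 96% of changes of 2 and 100% of changes of 4 on the log2 scale for RPF against mRNA.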

Additional observations from a re-analysis of the deposited data

Results flagged for a closer look

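The RPF to mRNA ratio of 4 genes differed between Torin1-treated and WT cells by the test of the interaction of assay and treatment. On the log2 scale, Eef2 was lower under Torin1 by -3.03 ± 0.35 (SE, with edgeR adjusted p = 0.00425). Its ratio was 0.28 in WT, and adding the difference gives -2.75 under Torin1. Eef1a1 differed by -3.08 ± 0.40 (edgeR adjusted p = 0.0093), Rps18 by -2.57 ± 0.36 (edgeR adjusted p = 0.0127) and Rpsa by -2.58 ± 0.40 (edgeR adjusted p = 0.0293). In each, all 3 footprint values under Torin1 lay below all 3 in WT. DESeq2 gave adjusted p between 0.0742 and 0.151 for these 4, and leaving out the second mRNA replicate of Torin1 gave 0.051 to 0.065.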

How the results depend on the processing

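Against 39 higher and 62 lower calls for RPF against mRNA, DESeq2 gave 86 and 279 (92 of the 101 genes shared), limma-voom with a variance per assay 0 and 4, DESeq2 size factors 27 and 40, TMM over all 6 libraries 8 and 76, centring on the median gene 78 and 35, no filter 29 and 41, and a fit of all 18 libraries 3 and 12. For limma-voom, 348 genes had an unadjusted p under 0.05. Leaving out 1 library gave 0 to 111 higher and 1 to 206 lower calls. An alternative chosen after seeing the data, without overlapping or noncoding genes, gave 25 and 36. Keeping Tmem38b (36 and 73), a limit of 500 mRNA reads (38 and 61) or of 200 reads in all 6 libraries (39 and 46) stayed within 1.5 times. The main fits did not pair RPF and mRNA libraries by replicate number. Deviations of same-numbered libraries had correlations of 0.055, 0.004 and -0.007, but the wide spread of the mRNA libraries could hide a pairing. With a replicate block there were 26 and 23 calls for RPF against mRNA and 4 for Torin1.

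For Torin1, the 4 calls among the 2495 genes became 7 with DESeq2 size factors, 8 with no filter and 73 with DESeq2, and 0 to 60 when 1 library was left out; 60 came without the second mRNA replicate of WT, 10 without the first and 0 without the second mRNA replicate of Torin1, and 1 and 2 without its RPF replicates 2 and 3.

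Signs turned for single values, with no cause tested. With TMM over all 6 libraries Actb was at -0.44, Calr at -0.077, elongation factors and other TOP mRNAs at -0.23, synthetases at -0.20 and splicing factors at -0.051. With centring, Eef1a1 was at 0.067 and Lgals1 at 0.17. Dph2 and Bub1b, with the widest mRNA ranges, were at 0.16 and 0.94 with limma-voom, at 0.0011 and 0.74 with the replicate block and from -2.72 to 0.79 and from -1.94 to 1.23 when 1 library was left out, the highest without mRNA replicate 2. A ratio per coding and transcript length was not run, since no lengths were at hand. Depth limits the genes with few RPF reads: 4 had 7 or fewer in 3 libraries.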

Other observations

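Of the called genes outside the gene groups, 9 are given here. Footprints were higher than mRNA for the hyaluronan receptor Cd44, with 748, 761 and 716 CPM in RPF and 122, 162 and 146 CPM in mRNA (2.37 ± 0.41), for Ptrf, the caveola coat protein cavin 1 (2.08 ± 0.36), for the ATPase Vcp, which extracts ubiquitinated proteins (2.44 ± 0.62), and for Ddb1, a ubiquitin ligase adaptor (1.18 ± 0.32). They were lower for Scap, the escort of the sterol-sensing factors (-3.65 ± 0.93), for Sys1, a Golgi membrane protein (-4.22 ± 1.02), for Mlec, an endoplasmic reticulum lectin (-3.19 ± 0.63), for Tomm5, a small subunit of the mitochondrial import pore (-4.36 ± 1.09), and for Cenpb, a centromere protein (-3.35 ± 0.69). All were called with edgeR and chosen after their values were seen.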
